A study of Mus musculus with 9 samples.

Results

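Switching from membrane to secreted antibody is in part a matter of where the heavy chain mRNA ends. This report follows 10 genes for factors of transcript elongation and mRNA processing through B cell activation and plasma cell (PC) differentiation. They encode the elongation factors Ell and Ell2, the ELL partners Eaf1 and Eaf2, the cleavage and polyadenylation factors Pcf11, Cstf2 and Cstf3, the RNA-binding proteins Hnrnpf and Hnrnpll, and the zinc finger protein Zfp318. The genes were chosen by name, with earlier results of these data known, and all 10 were found among the 29995 genes of the table without immunoglobulin (Ig) genes. All 10 also passed the filter on low values that left 12892 genes for testing, which asked for 1 TPM (transcript abundance corrected for transcript length and scaled to a fixed sum) in 3 or more libraries. Hnrnpll passed it through PCs, with 0 naive and 1 NP+ B cell library at that level, and Zfp318 passed it through naive cells, with 2 NP+ B cell libraries and 0 PC libraries.

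RNA was taken from spleens of 12-week-old B6.Blimp1+/GFP mice, in which 1 allele of Prdm1, the gene for Blimp1, carries a green fluorescent protein (GFP) reporter, and every group shared this genotype. All mice had received 50 µg of NP-LPS, the hapten nitrophenyl on lipopolysaccharide, by intraperitoneal injection 4 days earlier. Cells were sorted into 3 groups of 3 libraries. The libraries came from 3 mice, so the groups share animals, but which library came from which mouse is not given. Naive B cells were IgD high and B220 positive without NP binding, activated NP+ B cells (NP-specific B in the plots) carried NP-binding receptors and B220 and lacked IgD, GFP and CD138, and NP+ PCs lacked IgD and carried GFP and CD138. Because the naive cells came from immunized mice, no group stands for an unimmunized animal, and because the gate read IgD, B220 (a form of CD45), the Prdm1 reporter and CD138, the levels of Ighd, Ptprc, Prdm1 and Sdc1 are tied to the sort. In all groups the sort left out cells with CD4, CD8a, Ter-119 or F4/80. None of the 10 genes was part of the gate.

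Libraries held 28958700 to 39341500 estimated reads, of which 20189900 to 22137400 remained in PC libraries once Ig genes were left out. The 5 B cell markers summed to 7694 to 8046 TPM in naive libraries and to 1492 to 1565 TPM in PC libraries, while the 5 PC markers summed to 142 to 167 TPM in naive libraries and to 4811 to 5939 TPM in PC libraries. The 6 T cell markers summed to at most 8.30 TPM in every library. Liver markers stood apart in 1 library, with a sum of 4825 TPM in PC replicate 3 against 25.7 and 22.3 TPM in the other PC libraries and at most 5.52 TPM elsewhere. PC replicate 3 also had the highest macrophage sum, 86.7 TPM over 4 markers, of which Lyz2 made 48.2 TPM, and 32.0 TPM of neutrophil markers. NP+ B cell replicate 2 held 49.7 TPM of neutrophil markers. The macrophage sum was 9.0 to 9.54 TPM in naive libraries and 53.4 to 70.4 TPM in NP+ B cell libraries, where Cd68 supplied most of it, while Emr1, the gene for F4/80, was at 3.64 ± 0.656, 2.14 ± 1.34 and 0.361 ± 0.199 TPM in naive B cells, NP+ B cells and PCs. The part of these cells in the results below was not tested, and changes of the 10 genes in PCs are also given without PC replicate 3.

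An IgM or IgG heavy chain transcript can be cut at a proximal polyadenylation site, which gives the secreted form, or read through and spliced to the membrane exons further on. ELL2, an elongation factor of the super elongation complex that travels with RNA polymerase II, is known to favour the proximal site in plasma cells and the skipping of the membrane splice, and EAF proteins bind and stimulate ELL proteins. CSTF2, the RNA-binding subunit of the cleavage stimulation factor, and PCF11, which couples cleavage to termination, act at polyadenylation sites, whereas hnRNP F is known to oppose use of the secretory site in B cells. ZFP318 belongs to naive cells, where it lets transcription pass beyond Ighm so that IgD can be made from the same pre-mRNA. The tables give 1 value per gene, so the membrane and secreted forms of Ighm were not told apart here.

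**Figure D1:**
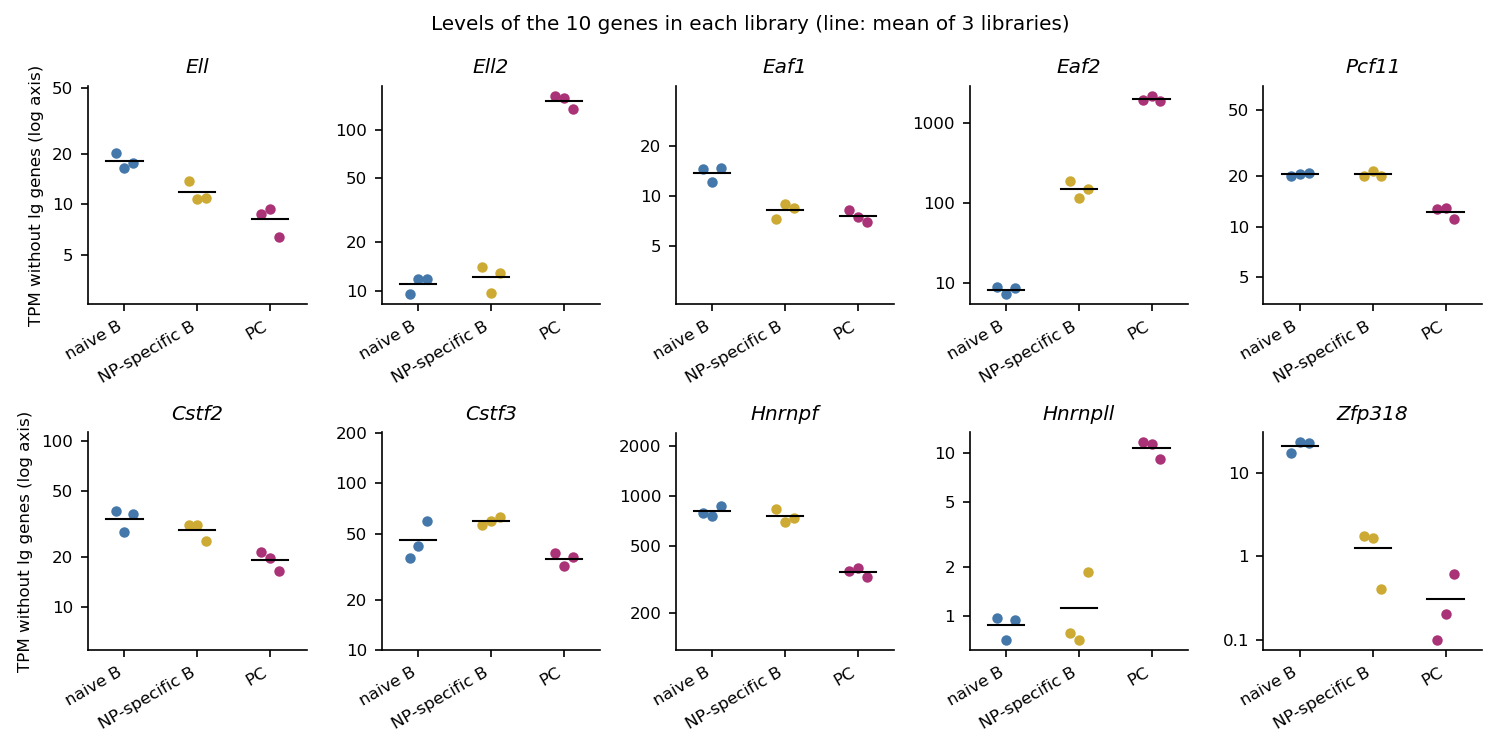
TPM without Ig genes (log axis, a separate range in each panel) of the 10 genes, with 1 point per library, 3 libraries per group and a line at the mean. Ell2, Eaf2 and Hnrnpll are highest in all 3 PC libraries, Zfp318 is highest in all 3 naive libraries, and the other 6 genes span less than 4-fold.

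A gene is called different below when limma gave an adjusted p under 0.05 and a fold change over 2, with p-values adjusted over all 12892 genes. In NP+ B cells against naive B cells, 2 of the 10 genes were called, Eaf2 higher and Zfp318 lower, where 18.5% of all tested genes were called (8.13% higher and 10.4% lower). In PCs relative to naive cells, 6 were called, with Ell2, Eaf2 and Hnrnpll higher and Ell, Hnrnpf and Zfp318 lower, beside 37.8% of all tested genes (11.4% higher and 26.3% lower). In PCs relative to NP+ B cells, 4 were called, with Ell2, Eaf2 and Hnrnpll higher and Hnrnpf lower, beside 32.2% of all genes (9.93% higher and 22.3% lower). Hnrnpll and Zfp318 entered these counts through the group where each is high. The comparisons share libraries, so their counts are not separate evidence. These are bulk samples, in which fewer cells of a type and less RNA per cell cannot be told apart.

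**Figure D2:**
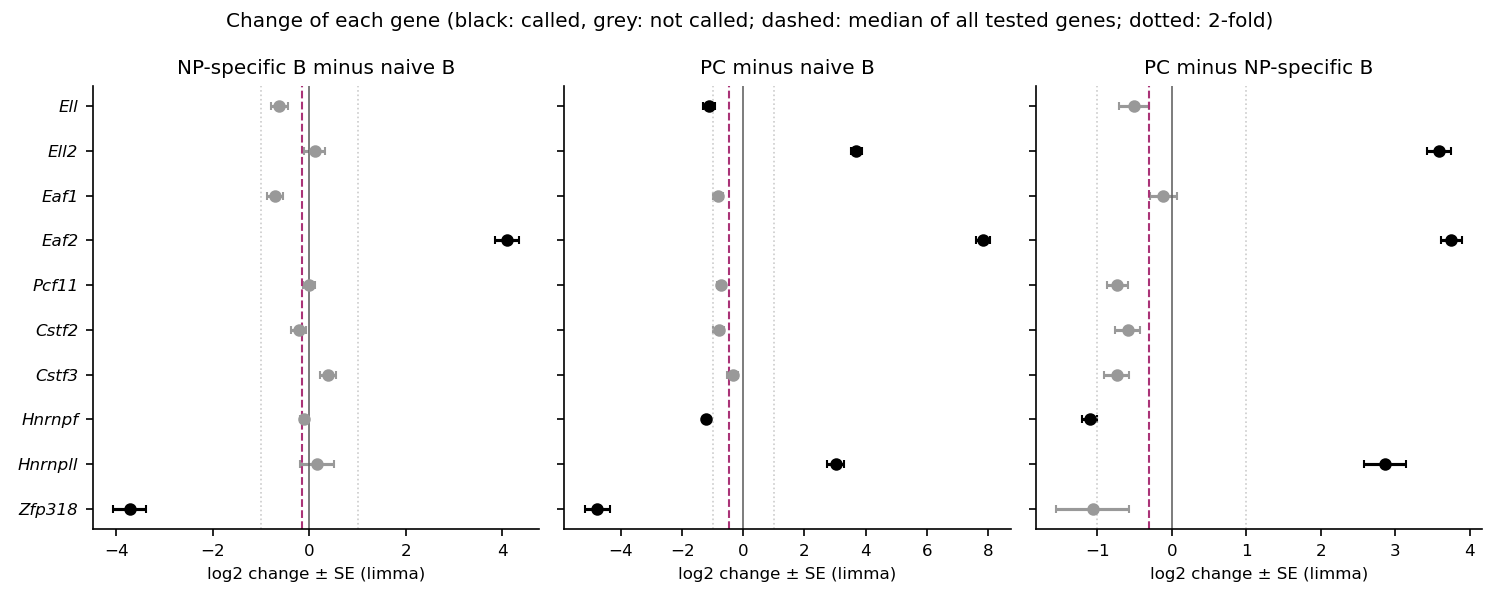
Log2 change ± SE (limma, 3 libraries per group) of each gene in the 3 comparisons, black where called and grey where not, with dotted lines at a 2-fold change and a dashed line at the median of all tested genes (-0.16, -0.47 and -0.30). Eaf2 is far to the right in all 3 panels, and Ell2 and Hnrnpll only in the panels that include PCs.

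Ell2, at chr13:75706757-75772364 on the plus strand (GRCm38, GENCODE M21), measured 9.58, 11.8 and 11.9 TPM in naive libraries, 14.1, 9.64 and 12.9 TPM in NP+ B cell libraries and 162, 158 and 134 TPM in PC libraries. The naive and NP+ B cell libraries overlapped, and every PC library lay far above both. From naive to NP+ B cells the log2 change of Ell2 was 0.11 ± 0.21 (SE; limma, adjusted p of 0.682), with a 95% interval of -0.34 to 0.57. In PCs Ell2 rose 13.0-fold over naive B cells, a log2 change of 3.70 ± 0.17 (limma, adjusted p of 1.73e-08), and 12.0-fold over NP+ B cells, 3.59 ± 0.16 (limma, adjusted p of 2.46e-08). Among the changes of all tested genes these were the rises of rank 143 and 118. Ranked by mean level among the tested genes, Ell2 stood at percentile 45.2 in naive B cells, 48.2 in NP+ B cells and 92.7 in PCs. Between 886 and 1149 estimated reads in naive libraries and between 8928 and 10917 in PC libraries lay behind these values. Without PC replicate 3 the changes of Ell2 were 3.79 and 3.68.

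Its paralog Ell (chr8:70539457-70592858, plus strand), the founding member of the family, went the other way. Ell measured 20.3, 16.5 and 17.8 TPM in naive libraries, 13.8, 10.7 and 10.9 TPM in NP+ B cell libraries and 8.75, 9.36 and 6.40 TPM in PC libraries. All 3 groups were apart, in the order naive B cells, NP+ B cells, PCs. The fall in PCs relative to naive cells was 2.19-fold, a log2 difference of -1.13 ± 0.19 (SE; limma, adjusted p of 0.000393), and it was -0.97 (limma, adjusted p of 0.00167) without PC replicate 3, which is under a 2-fold change. NP+ B cells were at -0.62 ± 0.18 against naive B cells (limma, adjusted p of 0.0174) and PCs at -0.51 ± 0.20 against NP+ B cells (limma, adjusted p of 0.0506; -0.35 without PC replicate 3), both short of the 2-fold threshold. The call of Ell was also lost with median-of-ratios scaling, where its change in PCs relative to naive cells was -0.63.

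The balance within the family does not depend on how a library was scaled. Ell2 made 38.0% ± 5.15 (SD, n = 3) of the summed TPM of Ell and Ell2 in naive B cells, 50.7% ± 3.38 in NP+ B cells and 94.9% ± 0.513 in PCs. The ratio of Ell2 to Ell ran from 0.472 to 0.716 in naive libraries, from 0.901 to 1.18 in NP+ B cell libraries and from 16.9 to 20.9 in PC libraries, so the groups did not overlap. Between PCs and NP+ B cells the mean log2 ratio differed by 4.18. An exact two-sided permutation test gave p = 0.1, which is the smallest that 3 libraries against 3 allow, and 0.138 after adjustment over the 18 ratio tests made here. That adjusted value holds for every ratio whose groups were apart.

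Ell3, the third member of the family, was called lower in PCs and took most of the family's TPM in both B cell groups. Ell3 measured 109 ± 10.1 TPM in naive B cells, 56.2 ± 13.5 TPM in NP+ B cells and 0.985 ± 0.342 TPM in PCs, a log2 change of -6.23 in PCs relative to naive cells (limma, adjusted p of 1.37e-07). It supplied 78.7% ± 1.48 (SD, n = 3) of the summed TPM of the 3 genes in naive B cells, 69.7% ± 2.45 in NP+ B cells and 0.603% ± 0.161 in PCs. Ell2 supplied 8.11% ± 1.5, 15.3% ± 0.43 and 94.3% ± 0.657. The sum itself was 150, 135 and 130 TPM in naive libraries, 95.3, 61.5 and 83.7 TPM in NP+ B cell libraries and 172, 169 and 141 TPM in PC libraries. Naive and PC libraries overlapped in this sum, and the NP+ B cell libraries were below both. With Ig genes kept the order was another, at 122 to 140 TPM in naive libraries, 55.2 to 84.3 TPM in NP+ B cell libraries and 42.3 to 51.2 TPM in PC libraries, with PCs lowest and no overlap. These are TPM as given. Their total per library is lower in PCs in that table, and values rescaled to equal totals were not compared.

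**Figure D3:**
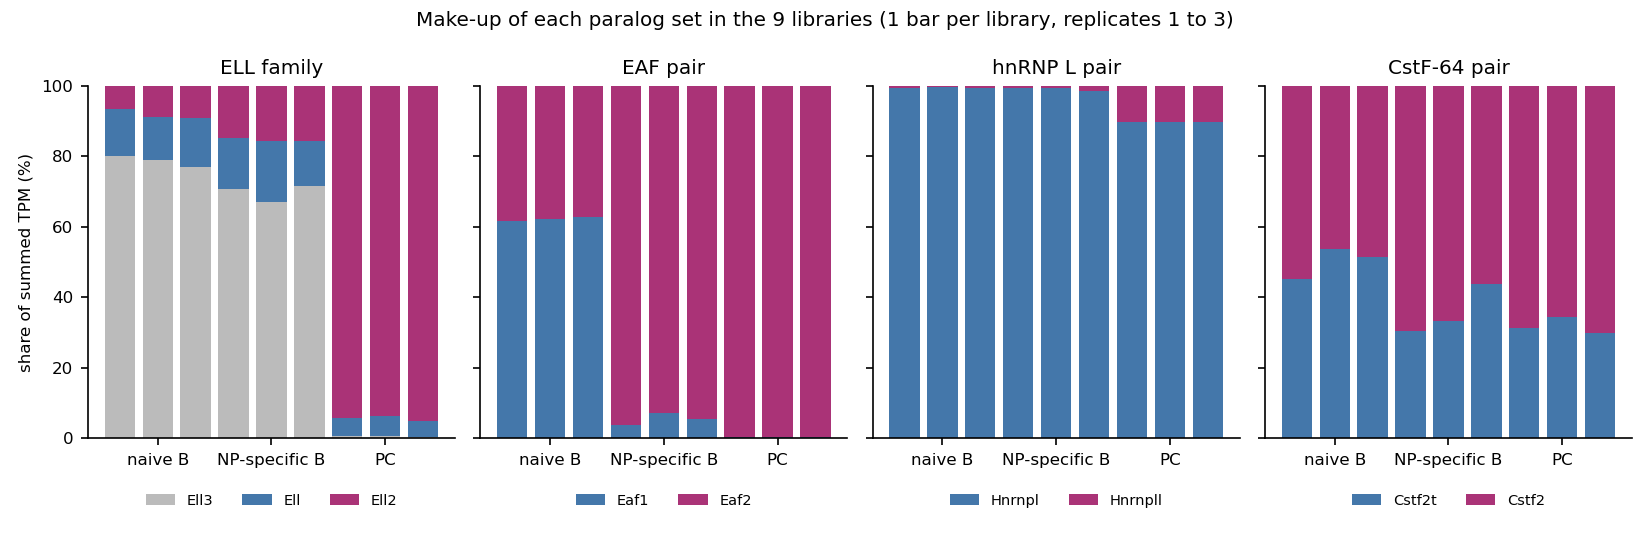
Share of the summed TPM (%) that each paralog takes in the ELL family, the EAF pair, the hnRNP L pair and the Cstf2 pair, with 1 bar per library. Ell3 fills most of the naive bars and Ell2 94.3% of the PC bars on average, while Eaf2 already fills 94.6% of its pair in NP+ B cells.

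Eaf2 (chr16:36792884-36875003, minus strand) had the largest change of the 10 genes in both comparisons with PCs, and in NP+ against naive B cells as well, though there Zfp318 changed more when estimated counts (-4.27 beside 4.21) or the authors' log2 values (-4.28 beside 4.21) were fitted, and without NP+ B cell replicate 1 (-3.95 beside 3.92). It measured 8.93, 7.32 and 8.59 TPM in naive libraries, 190, 117 and 151 TPM in NP+ B cell libraries and 1956, 2200 and 1899 TPM in PC libraries. No library of one group came near a library of another, in the order naive B cells, NP+ B cells, PCs. Eaf2 rose 17.1-fold in NP+ over naive B cells, a log2 difference of 4.09 ± 0.25 (SE; limma, adjusted p of 1.93e-06), the rise of rank 29 among all tested genes. It rose a further 13.4-fold in PCs over NP+ B cells, 3.75 ± 0.14 (limma, adjusted p of 4.69e-09, rank 103). In PCs over naive B cells the rise was 229-fold, 7.84 ± 0.24 (limma, adjusted p of 9.41e-10), which ranked 7 of 12892. By level Eaf2 moved from percentile 39.8 of the tested genes to 91.6 and then 99.4. It was covered by 200 to 233 estimated reads in naive libraries, 3665 to 6063 in NP+ B cell libraries and 35726 to 42846 in PC libraries. Leaving out each library in turn kept the first rise between 3.92 and 4.27, and without PC replicate 3 the rises in PCs were 7.89 and 3.79. The neighbouring gene Iqcb1 runs on the opposite strand across part of Eaf2, and the library kit does not mark strand, but the 2 genes share 0 exon bases in GENCODE M21. Iqcb1 measured 37.3 ± 1.92, 46.1 ± 7.29 and 182 ± 6.19 TPM in the 3 groups.

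Eaf1 (chr14:31494399-31509858, plus strand), which encodes the other ELL-associated factor, was not called in any comparison. Its libraries measured 14.4, 12.1 and 14.6 TPM in naive B cells, 7.24, 8.95 and 8.47 TPM in NP+ B cells and 8.26, 7.45 and 7.0 TPM in PCs. Naive libraries were above all others, and the other two groups overlapped. The log2 change was -0.71 ± 0.17 (SE; limma, adjusted p of 0.00672) in NP+ B cells and -0.82 ± 0.17 (limma, adjusted p of 0.00167) in PCs, each against naive B cells and each under 2-fold. Without PC replicate 3 Eaf1 was at -0.76 in PCs relative to naive cells and -0.05 relative to NP+ B cells. Eaf1 shares 139 exon bases (2.53% of its own) with Mettl6 on the opposite strand.

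The ratio of Eaf2 to Eaf1 was 0.590 to 0.622 in naive libraries, 13.1 to 26.3 in NP+ B cell libraries and 237 to 295 in PC libraries. Eaf2 thus made 37.7% ± 0.614 (SD, n = 3) of the pair, then 94.6% ± 1.71 and 99.6% ± 0.0420. Ell2 and Eaf2, whose products bind each other, differed at the first step, where Eaf2 was called and Ell2 was not. The ratio of Ell2 to Eaf2 was 1.07 to 1.62 in naive libraries, 0.0743 to 0.0854 in NP+ B cell libraries and 0.0705 to 0.0826 in PC libraries. Naive libraries were apart from NP+ B cell libraries, with a mean log2 difference of -4.06 (exact permutation p = 0.1, the smallest possible). The last 2 groups overlapped, with a mean log2 difference of -0.11 (exact permutation p = 0.3, 0.360 after adjustment).

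Set against the PC mean, NP+ B cells held 9.42%, 5.82% and 7.48% of the PC level of Eaf2 in their 3 libraries, while naive B cells held 0.410%. For Ell2 the mean was 8.09% in NP+ B cells and 7.35% in naive B cells. For the PC marker Sdc1, which encodes CD138, the share in NP+ B cells was 0.325%, and for Tnfrsf17, the receptor BCMA, 1.41%. It was 3.74% for Xbp1, a regulator of the secretory apparatus, and 4.84% for Prdm1. Naive B cells held 2.42% of the PC level of Sdc1, 0.0348% for Tnfrsf17, 2.85% for Xbp1 and 2.55% for Prdm1. Sdc1 was thus lower in NP+ than in naive B cells, and Tnfrsf17, like Eaf2, was far higher. The mean share of Eaf2 was above those of these 4 PC genes. It was below that of the PC regulator Irf4, 9.90%, which stood at 22.4% in naive B cells. The sort took NP+ B cells without CD138 and GFP and PCs with both. Low shares of Sdc1 and Prdm1 were thus built into the gate. In NP+ B cell replicate 1 alone Eaf2 was above Irf4, which was at 6.34% there. In replicate 3 Eaf2 and Prdm1 were close, at 7.48% and 7.38%. These shares move with the scaling. In the table that keeps Ig genes, by TPM not rescaled to equal totals, NP+ B cells held 23.2% of the PC level of Eaf2 and 24.8% of that of Ell2. They held 15% of the PC level of Prdm1 and 30.5% of that of Irf4, so by mean Eaf2 stayed between Prdm1 and Irf4. In replicate 1 Eaf2 was at 28.6% on this scale, again above Irf4, at 19.3%. Igj, the gene for the J chain of secreted IgM, is among the genes left out of the other table. It was at 2.35% in NP+ B cells here and at 0.0193% in naive B cells. How far PCs that passed the gate contribute to these shares was not tested.

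The windows upstream of Ell2 and Eaf2 are shown because these 2 genes had the largest rises in PCs among the 10. Sequences are RefSeq promoter windows (GRCm38.p6, 250 bases before the annotated start), and 9 of the 10 genes had 1 or more windows, 14 in all; Hnrnpll was not matched. Both strands were searched for the motif CCAAT, for the motif TGACGT, for the motif CCACG and for a GAAA repeat with 2 bases of any kind between its copies, all chosen after the sequences had been seen. CCAAT is the box bound by NF-Y, TGACGT a core of CREB, ATF and XBP1 sites, CCACG the part that follows CCAAT in the ER stress element, and the GAAA repeat a form bound by IRF proteins. The Ell2 stretches are at chr13:75707275-75707304 and chr13:75707395-75707424 on the plus strand, where they lie in the first exon, in the 5′ UTR, of a longer Ell2 transcript of GENCODE M21. The Eaf2 stretches are at chr16:36875015-36875044 and chr16:36874977-36875006 on the minus strand, the first outside any exon and the second overlapping an exon of 2 Eaf2 transcripts of GENCODE M21. Each is 30 bases, 5′ to 3′, with capitals marking the CCAAT or TGACGT match; in the first, TGACGTCA reads as TGACGT on both strands.
Ell2, match 198 bases before the start: aagacgagacaTGACGTCAgataagattaa
Ell2, match 76 bases before the start: aggtgaagagcagCCAATgagggaggctct
Eaf2, match 205 bases before the start: tgacagaaaccaaCCAATgccctaaagcct
Eaf2, match 167 bases before the start: ctcaaagacggagCCAATggattctaagaa
The Ell2 window held 3 CCAAT matches and 3 TGACGT matches, the palindrome counted on each strand, and the Eaf2 window shown held 2 CCAAT matches and no TGACGT. Over all 32851 windows of 250 bases in the RefSeq table, 33.8% held CCAAT and 2.79% held 3 or more, and 6.47% held TGACGT and 0.152% held 3 or more. CCAAT stood in 9 of the 14 windows of these genes, among them Pcf11, with 3 matches, and Cstf3, with 2, neither of which was called. TGACGT stood in 3 of 14 windows (Ell2, Cstf2 and Cstf3), CCACG in 5, beside 28.3% of all windows, and the GAAA repeat in 0, beside 2.98%. These matches describe letters, not binding.

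The 3 cleavage and polyadenylation factors among the 10 genes were not called in any of the 3 comparisons. Pcf11 (chr7:92643543-92669934, minus strand) measured 20.2, 20.6 and 20.9 TPM in naive libraries, 20, 21.6 and 20.2 TPM in NP+ B cell libraries and 12.7, 12.9 and 11.1 TPM in PC libraries. The first 2 groups overlapped, with a log2 difference of -0.01 ± 0.13 (SE; limma, adjusted p of 0.969) and a 95% interval of -0.29 to 0.27. PC libraries were below all others, by -0.73 ± 0.14 against naive B cells (limma, adjusted p of 0.000844) and -0.73 ± 0.14 against NP+ B cells (limma, adjusted p of 0.00101), each a 1.66-fold difference and so under the threshold. Relative to the median of all tested genes these differences were -0.26 and -0.43, and without PC replicate 3 both were -0.66.

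Cstf2 (chrX:134059187-134086819, plus strand) measured 37.6, 28.1 and 36.4 TPM in naive libraries, 31.3, 31.0 and 25.1 TPM in NP+ B cell libraries and 21.4, 19.7 and 16.4 TPM in PC libraries. The PC libraries again lay below the rest, and the other two groups overlapped. Its log2 change in PCs was -0.81 ± 0.17 (SE) against naive B cells (limma, adjusted p of 0.00175) and -0.59 ± 0.17 against NP+ B cells (limma, adjusted p of 0.0138), or -0.71 and -0.48 without PC replicate 3. Cstf2 shares 399 exon bases (4.35% of its own) with Nox1 on the opposite strand, which was at 5.76 ± 0.700 TPM or less in every group mean. Cstf3 (chr2:104590523-104665429, plus strand), the scaffold subunit that binds CSTF2, measured 35.9, 42.0 and 59.7 TPM, then 55.9, 59.4 and 63.1 TPM, then 38.1, 31.9 and 36.3 TPM. It was lower in PCs than in NP+ B cells, -0.74 ± 0.17 (limma, adjusted p of 0.00392), without reaching 2-fold, and its naive libraries spanned most of the range of the other groups. Its change in PCs relative to naive cells, -0.34, turned to 0.15 with median-of-ratios scaling. The changes of Cstf3 in PCs were -0.36 and -0.76 without PC replicate 3.

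Cstf2t, the autosomal paralog of the X-linked Cstf2, fell at the first step. It measured 34.0 ± 3.93, 16.2 ± 3.12 and 9.01 ± 1.77 TPM (SD, n = 3), and was called lower in NP+ B cells (-1.06, limma, adjusted p of 0.000896) and in PCs (-1.88, limma, adjusted p of 1.12e-05) against naive B cells. The call in NP+ B cells was lost with median-of-ratios scaling, at -0.96. Cstf2 made up 49.9% ± 4.34, 64.2% ± 7.17 and 68.2% ± 2.29 of the pair in the 3 groups. Naive libraries were apart from both other groups in this ratio, and those 2 overlapped (mean log2 difference 0.25, exact permutation p = 0.6). Between Cstf2 and Cstf3 the ratio was 0.609 to 1.05 in naive libraries, 0.398 to 0.559 in NP+ B cell libraries and 0.451 to 0.618 in PC libraries, and only the first 2 groups did not overlap. The 2 paralogs have similar coding sequence, and reads that match both are divided by the authors' pseudoalignment, so each value is less certain than that of a single-copy gene.

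Hnrnpf (chr6:117900324-117925622, plus strand) was the most abundant of the 10 genes in both B cell groups. It measured 796, 759 and 879 TPM in naive libraries, 834, 697 and 737 TPM in NP+ B cell libraries and 357, 372 and 326 TPM in PC libraries. The B cell groups overlapped, and all 3 PC libraries lay below them. Hnrnpf fell 2.31-fold in PCs relative to naive cells, a log2 difference of -1.21 ± 0.10 (SE; limma, adjusted p of 1.53e-06), and 2.14-fold against NP+ B cells, -1.10 ± 0.10 (limma, adjusted p of 4.22e-06). The change from naive to NP+ B cells was -0.11 (limma, adjusted p of 0.362). Relative to the median of all tested genes the falls were -0.74 and -0.80, and with median-of-ratios scaling both were -0.72 and under 2-fold, with limma, adjusted p of 4.19e-05 and 5.53e-05. Even in PCs its level stood at percentile 96.4 of the tested genes, from 98.7 in naive B cells. Without PC replicate 3 the falls were -1.15 and -1.04.

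Hnrnpll (chr17:80029487-80062334, minus strand), an RNA-binding protein that governs exon skipping in Ptprc and is known from plasma cells, was the lowest of the 10 genes in naive B cells. It measured 0.968, 0.707 and 0.938 TPM there, 0.780, 0.705 and 1.86 TPM in NP+ B cell libraries and 11.6, 11.3 and 9.19 TPM in PC libraries. NP+ B cell replicate 3 alone was above the naive range, and PC libraries were above all others. Hnrnpll rose 8.12-fold in PCs over naive B cells, a log2 difference of 3.02 ± 0.29 (SE; limma, adjusted p of 5.80e-06), and 7.24-fold over NP+ B cells, 2.86 ± 0.28 (limma, adjusted p of 9.01e-06). Because the gene was tested only through its level in PCs, a difference from PCs was built into its selection. The fit with no filter gave 3.02 and 2.86 (limma, adjusted p of 1.39e-05 and 2.41e-05). That fit used the same values of this gene, so it does not answer for the selection. With an offset of 0.5 TPM in these changes, the rise of a gene this low is understated. Over all alternatives the log2 rise ran from 1.91 to 3.71 over naive B cells and from 1.74 to 3.47 over NP+ B cells. Estimated reads were 56.5 to 73.7 in naive libraries and 505 to 645 in PC libraries. Without PC replicate 3 the rises were 3.12 and 2.96. The change from naive to NP+ B cells was 0.16 ± 0.36 (limma, adjusted p of 0.733), and -0.14 without NP+ B cell replicate 3.

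Its paralog Hnrnpl stayed the more abundant of the pair. Hnrnpll took 0.533% ± 0.105 (SD, n = 3) of their sum in naive B cells, 0.813% ± 0.528 in NP+ B cells and 10.1% ± 0.0185 in PCs. Against Hnrnpf, its ratio went from 0.000932 to 0.00122 in naive libraries to 0.0282 to 0.0325 in PC libraries. Ptprc, the gene for CD45 and a splicing target of HNRNPLL, measured 606 ± 68.9 TPM in naive B cells, 633 ± 28.9 TPM in NP+ B cells and 220 ± 36.6 TPM in PCs, where it was called lower against naive B cells (-1.47, limma, adjusted p of 2.26e-06). That fall is not independent of the gate, since both B cell groups were selected on B220 and PCs were not, and with median-of-ratios scaling it was -0.98 and under 2-fold. Its isoforms, like those of Ighm, were not separated in the tables.

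Zfp318 (chr17:46383731-46420920, plus strand) fell from naive to NP+ B cells, the step at which Eaf2 first rose. It measured 17.1, 23.1 and 23.0 TPM in naive libraries, 1.73, 1.65 and 0.402 TPM in NP+ B cell libraries and 0.0987, 0.204 and 0.620 TPM in PC libraries. Every naive library was far above every other, while NP+ B cells and PCs overlapped through NP+ B cell replicate 3 and PC replicate 3. The fall was 13.2-fold in NP+ against naive B cells, a log2 difference of -3.72 ± 0.34 (SE; limma, adjusted p of 1.71e-05), the fall of rank 9 among all tested genes. Zfp318 met the filter through its naive level, so a fall was favoured by the selection. With no filter the fall was -3.72 (limma, adjusted p of 8.78e-05), and -4.78 (limma, adjusted p of 2.62e-06) in PCs. These come from the same values of the gene, so they do not answer for the selection. In PCs relative to naive cells the change was -4.78 ± 0.41 (limma, adjusted p of 2.36e-06, rank 96), and -5.04 without PC replicate 3. All 3 PC values are near or below the offset of 0.5 TPM, which understates this fall. Estimated counts gave -6.37, the authors' log2 values -6.36, and the TPM fit -5.90 with an offset of 0.1 and -4.08 with an offset of 1. PCs differed from NP+ B cells by -1.06 ± 0.49 (limma, adjusted p of 0.0912; 95% interval -2.15 to 0.02), which was not called. That difference was called in 3 alternatives, among them the fit without NP+ B cell replicate 3, at -1.49 (limma, adjusted p of 0.0127), and was -1.32 without PC replicate 3. Estimated reads in the PC libraries were 9.69, 20.5 and 60.2, against 2301 to 3260 in naive libraries, so the lowest values stand close to the floor of 3 reads (0.0304 TPM).

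Ighd and Ighm lie next to each other (chr12:113406604-113416324 and chr12:113418558-113422730, minus strand) and are transcribed together in naive cells. In the table that keeps Ig genes, Ighd was 61.7%, 67.1% and 61.7% of Ighm in naive libraries, 0.760%, 0.758% and 0.790% in NP+ B cell libraries and 0.000738%, 0.00100% and 0.00277% in PC libraries. The 3 groups were apart. Ighm itself was 4482 ± 134, 5239 ± 422 and 47717 ± 2731 TPM, and Ighd 2843 ± 54.3, 40.3 ± 2.39 and 0.704 ± 0.486 TPM. Because the sort selected on surface IgD, the Ighd share is not independent of the gate, and its relation to Zfp318 was not tested.

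The rest of the machinery was followed in lists of 18 genes for 3′ end processing, 22 for elongation, 24 hnRNP genes and 3 for the U1 snRNP, a particle that binds 5′ splice sites and can shield polyadenylation sites. All 67 genes were tested. In NP+ against naive B cells 9 were called, 6 higher and 3 lower (13.4%, beside 18.5% of all genes). In PCs relative to naive cells 19 were called, 1 higher and 18 lower (28.4%, beside 37.8%), and against NP+ B cells 21, 1 higher and 20 lower (31.3%, beside 32.2%). In PCs relative to naive cells the median log2 change was -0.69 for 3′ end processing, -0.72 for elongation, -0.55 for hnRNP genes and 0.32 for the U1 snRNP, next to -0.47 for all tested genes. Without PC replicate 3 the counts in PCs were 18 and 21. Of all tested genes 11.3% were then higher and 26.4% lower relative to naive cells, and 9.45% and 22.0% relative to NP+ B cells. The counts depended on scaling. With median-of-ratios scaling they were 10 and 18, beside 18.2% higher and 14.1% lower of all tested genes, then 15.7% and 13.9%. With Ig genes kept they were 57 and 60, beside 4.47% higher and 64.5% lower, then 3.41% and 59.7%.

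Of the 3′ end list, 7 genes (38.9%) were called lower in PCs relative to naive cells and none higher, beside 26.3% lower and 11.4% higher of all tested genes. With median-of-ratios scaling 3 stayed lower (16.7%), beside 14.1% lower and 18.2% higher of all tested genes, and Cpsf1, Cpsf2, Cpsf3 and Cpsf7 were no longer called. The largest falls were those of Rbbp6, a ubiquitin ligase of the cleavage complex (32.4 ± 2.43, 23.3 ± 4.29 and 8.58 ± 3.30 TPM; log2 change -1.94, limma, adjusted p of 7.55e-05), and of Cstf2t. Rbbp6 was at -1.59 (limma, adjusted p of 8.98e-05) without PC replicate 3, where Cstf2t (-1.71) and Papolg (-1.64) fell further. Among elongation genes 8 were called lower and 1 higher (40.9% in all, against the same background), and 5 lower and 1 higher with median-of-ratios scaling (27.3% in all). Besides Ell3, the largest fall was that of Aff3, a scaffold of super elongation complexes, at 16.4 ± 1.80, 22.8 ± 9.93 and 1.57 ± 0.380 TPM (-3.04, limma, adjusted p of 0.000261). Mllt3, the chromatin reader AF9 of the same complexes, was the one that rose, at 11.6 ± 0.922, 13.5 ± 3.49 and 31.6 ± 5.44 TPM (1.39, limma, adjusted p of 0.000157; 0.21 and not called with Ig genes kept). Of the hnRNP list, Hnrnpa0, Hnrnpab and Ptbp3 were called lower in PCs and none higher (12.5% in all), beside 26.3% lower and 11.4% higher of all tested genes. With median-of-ratios scaling none of these 3 was called, at -0.85, -0.78 and -0.75. Pcbp1, named after its values were seen, had the largest positive change of this list, from 42.8 ± 1.29 to 72.0 ± 9.57 TPM (0.73, limma, adjusted p of 0.0326). It was the gene of this list called with median-of-ratios scaling (1.22, limma, adjusted p of 0.00139). Its change turned to -0.47 with Ig genes kept (limma, adjusted p of 0.165). Without PC replicate 3 its change was 0.63 (limma, adjusted p of 0.088), and it was not called in either fit. Hnrnpab went up before it went down, with 137 ± 44.1 TPM in naive B cells, 314 ± 38.4 TPM in NP+ B cells and 60.0 ± 28.9 TPM in PCs. It was no longer called in PCs relative to naive cells without PC replicate 3 (-0.82). Hnrnpa0 measured 10.1 ± 1.26, 13.9 ± 3.09 and 3.68 ± 0.658 TPM. None of the 3 U1 genes was called, with limma changes between -0.02 and 0.34 in PCs relative to naive cells.

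**Figure D4:**
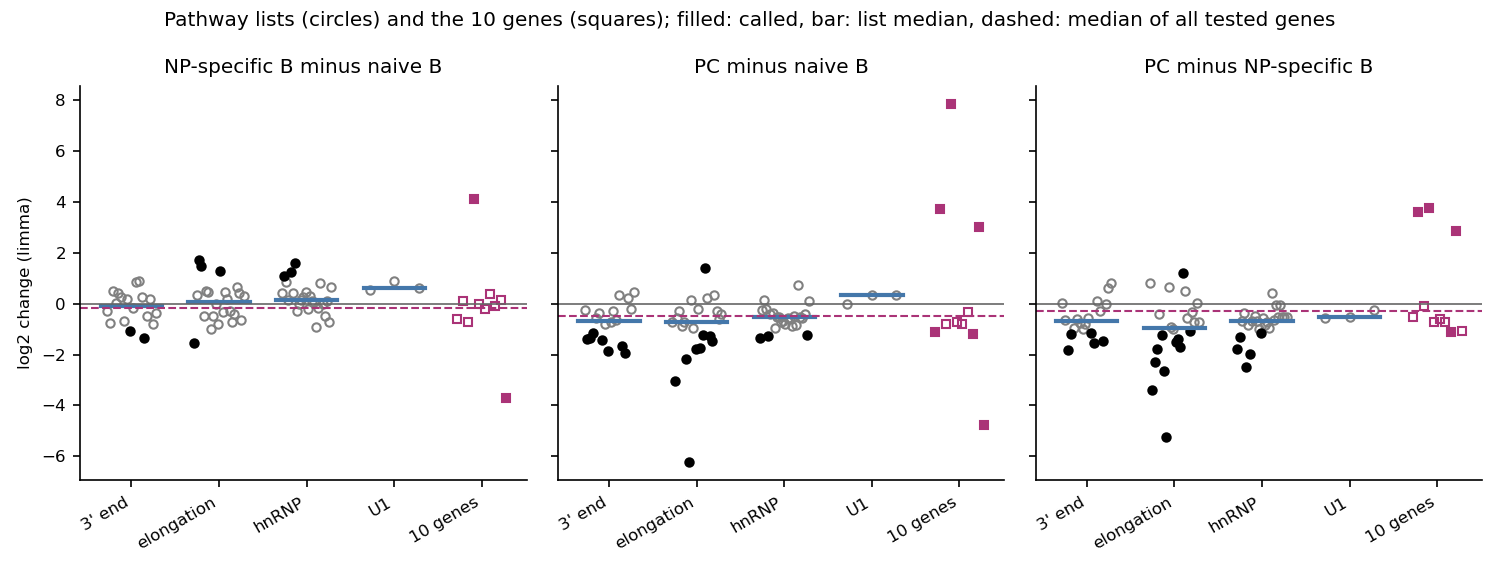
Log2 change (limma) of the genes of the 4 lists (circles) and of the 10 genes (squares), filled where called, with a bar at each list's median and a dashed line at the median of all tested genes. At this column-sum scaling the called list genes in PCs lie below zero apart from Mllt3 (with median-of-ratios scaling Pcbp1 was also called higher relative to naive cells, and Aff1, Hexim1 and Wdr33 relative to NP+ B cells), whereas the 10 genes reach from -4.78 to 7.84 in PCs relative to naive cells.

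The genes with a pattern most like that of Ell2, by Pearson correlation of log2(TPM + 0.5) over the 9 libraries, were Hspa5 (r = 0.9984), Ern1 (0.9979), Ergic1 (0.9977), Tspan13 (0.9976) and Selk (0.9968). Hspa5 encodes the ER chaperone BiP and measured 512 ± 37.0, 585 ± 60.9 and 4665 ± 394 TPM. Ern1 encodes the ER stress sensor IRE1α and measured 2.94 ± 0.848, 3.4 ± 0.533 and 54.7 ± 8.76 TPM. Both were near level in the B cell groups and high in PCs, as was Ell2. Genes most like Zfp318 included Carns1 (0.9927, listed a second time in capitals with the same values), Fam101b (0.9914) and Zfyve27 (0.9880). Fam101b measured 19.8 ± 2.19, 1.28 ± 0.774 and 0.246 ± 0.216 TPM. The 9 libraries form 3 clusters, so any gene with the same order of groups scores high, and no p is given.

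How the libraries are put on 1 scale matters most for the moderate differences. Leaving out Ig genes multiplied TPM by 1.067 to 1.069 in naive libraries, by 1.107 to 1.131 in NP+ B cell libraries and by 3.332 to 3.597 in PC libraries. With Ig genes kept, Ell2 was at 44.1 ± 4.03 TPM in PCs against 10.4 ± 1.23 TPM in naive B cells, and Eaf2 at 588 ± 21.3 against 7.75 ± 0.801 TPM. TPM of that table summed to 671550 to 699885 in PC libraries and 936731 to 937784 in naive libraries. The fit scaled each library to its sum, so its log2 changes are larger than these TPM give. They were 2.49 for Ell2 (limma, adjusted p of 3.37e-07) and 6.61 for Eaf2 (limma, adjusted p of 6.39e-09). Hnrnpll rose by 1.91 (limma, adjusted p of 7.41e-05). The other 7 genes were all called lower in PCs than in naive cells on that scale. Of all tested genes 64.5% were called lower and 4.47% higher there, with a median of -1.40. With median-of-ratios scaling the median of all tested genes was 0.02, up from -0.47 with column sums, with 18.2% called higher and 14.1% lower. Of the 10 genes, those called were then Ell2, Eaf2, Hnrnpll and Zfp318, at 4.20, 8.33, 3.51 and -4.29. These 4 genes kept call and direction in PCs relative to naive cells under all 3 scalings. Hnrnpll and Zfp318 entered the test through the group where each is high. The scalings used the same values of these genes, so they do not answer for that selection.

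**Figure D5:**
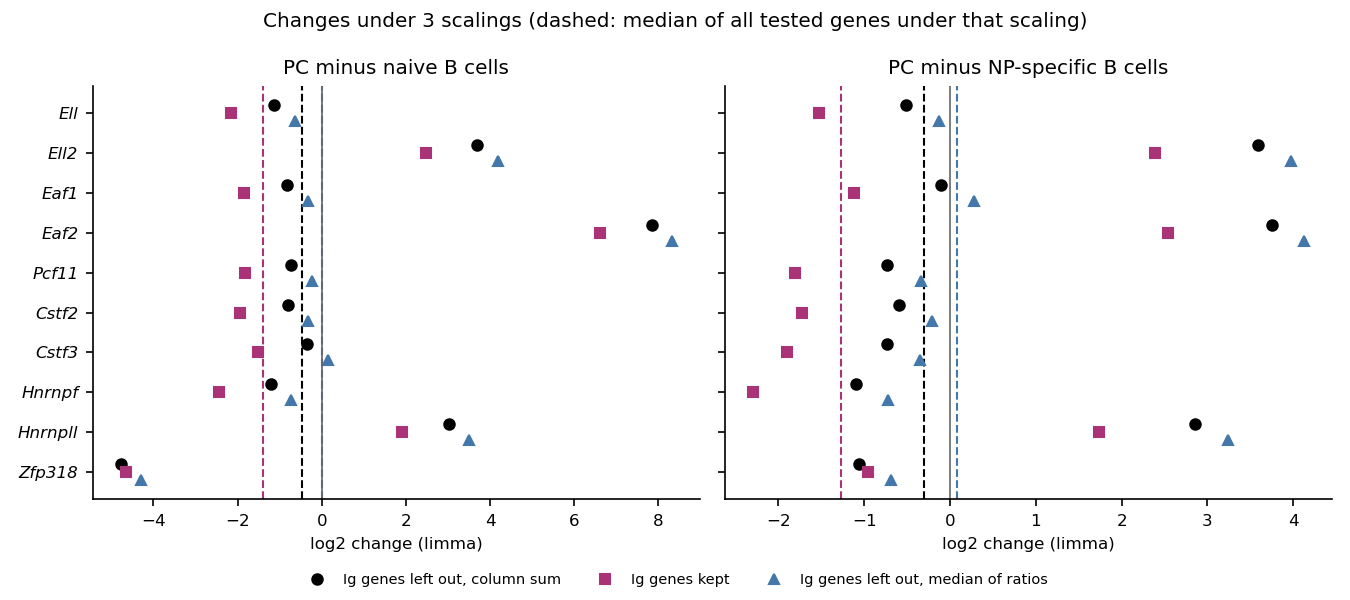
Log2 change (limma) of each gene in PCs under 3 scalings (circles, Ig genes left out and column sum; squares, Ig genes kept; triangles, median of ratios), with dashed lines at the median of all tested genes under each. Ell2, Eaf2 and Hnrnpll stay at 1.74 or more in both panels, and the genes near the median shift with it, Cstf3 and Eaf1 across zero.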

How the data were processed

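RNA was measured by template-switching RNA-seq of polyadenylated RNA, with a kit that does not mark strand, in 9 sorted libraries. The authors pseudoaligned reads with kallisto (the submitters' processing notes name mm10; the transcript annotation is not given in the sources used here) and deposited TPM per gene symbol, with and without 322 Ig genes. The authors also deposited voom log2 values, from which estimated reads per gene and library were recovered. The series gives 3 cell types from 3 mice, but the labels' replicate numbers are not stated to mark a mouse, so shared animals are not in the fit.

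TPM without Ig genes were tested with limma 3.58.1 in R 4.3.3 (voom, column sum, offset 0.5, all 9 libraries, 3 group means, no block). The filter kept genes that reached 1 TPM in 3 or more libraries. P-values were adjusted by Benjamini-Hochberg over 12892 genes, and a call needed an adjusted p under 0.05 and a fold change over 2. Ratios within libraries were compared by exact permutation. The floor was 3 reads and covers counting error only. The code was tested on simulated data. Alternatives changed scaling, values, offset, filter, design and libraries.

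All 10 genes are named, with the largest 2 rises and 2 falls per pathway list among genes called in PCs against naive B cells, the 5 genes most like Ell2 and the 5 most like Zfp318 (1 of them is not reported here), and reference genes. The genes, lists and rules were chosen with earlier results of these data known. Positions are from GENCODE M21 and promoter sequences from RefSeq, both GRCm38, the same assembly as mm10.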

Additional observations from a re-analysis of the deposited data

How the results depend on the processing

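Of 561 alternative values of the log2 changes of the 10 genes, 534 kept direction and call, 4 lost the call, 12 gained one and 11 changed sign. With a mean TPM of at least 10, 7 of the 10 genes were tested, and Eaf1, Hnrnpll and Zfp318 were not. In NP+ against naive B cells 1 gene was then called instead of 2, because Zfp318 was no longer tested. Hnrnpll and Zfp318 likewise dropped out of the calls in PCs. Over all genes the counts with that filter were 1179, 2965 and 2640 in place of 2388, 4870 and 4150. With Ig genes kept, 10 genes were called in PCs relative to naive cells (57 of the lists, 8494 of all genes, 551 higher and 7943 lower) and 9 against NP+ B cells (60 of the lists, 7775 of all genes, 420 higher and 7355 lower). The gained calls were Eaf1 (-1.84, -1.12), Cstf2 (-1.95, -1.72), Cstf3 (-1.52, -1.90) and Pcf11 (-1.83, -1.81) in both comparisons, and Ell (-1.53) against NP+ B cells. Median-of-ratios scaling left 4 and 3 of the 10 genes called in PCs, with 10 list genes against naive B cells; the split over all genes was 2349 higher and 1814 lower there, in place of 1473 and 3397, 2023 and 1788 against NP+ B cells, in place of 1280 and 2870, and 1258 and 1022 in NP+ against naive B cells, in place of 1048 and 1340. Signs changed with that scaling for Cstf3 (0.15), Eaf1 in PCs relative to NP+ B cells (0.28) and Pcf11 in NP+ B cells (0.10). Pcf11 in that comparison, at -0.01, was also 0.03 with the authors' log2 values and with estimated counts, 0.00 with both other offsets, and -0.04 to 0.01 over the fits that each left out 1 library. Zfp318 in PCs relative to NP+ B cells was called with the authors' log2 values (-2.07, limma, adjusted p of 0.0237), with an offset of 0.1 (-1.74, 0.029) and without NP+ B cell replicate 3 (-1.49); over all alternatives its adjusted p ran from 0.0127 to 0.267. Over the fits that left out 1 library each, 5 to 6 of the 10 genes were called in PCs relative to naive cells, Hnrnpll in NP+ against naive B cells ran from -0.14 to 0.34, and 3 ratio differences changed sign, Cstf2 to Cstf3 (-0.0033 to 0.27) and Cstf2 to Cstf2t (-0.0030 to 0.42) in PCs relative to NP+ B cells and Hnrnpll to Hnrnpf (-0.13 to 0.59) in NP+ against naive B cells, each negative without NP+ B cell replicate 3. The cause of these changes was not tested.

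Same-numbered libraries did not deviate together (correlations -0.0749 to 0.0675, none of 9 over 0.1, and 2 of 9 libraries best with their own number), so the numbers were not taken to pair the samples. With the replicate number as a block, 2, 6 and 4 of the 10 genes were called, as without it. Depth limits Zfp318 in PCs most, and the tables give no isoforms, so use of the secretory site was not measured.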
